A study of Drosophila melanogaster with 9 samples.

Results

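Respiratory chain genes of the fruit fly Drosophila melanogaster were followed in sorted mesodermal cells of 2 Forkhead gene mutants and of controls. The genes were chosen by symbol alone, as those whose current symbol begins with ND-, with SdhA to SdhD, with UQCR, with COX and a digit, or with ATPsyn. These prefixes mark subunits of complexes I, II, III and IV and of the ATP synthase (complex V). Of 11982 genes with a named probe set, 72 met the rule, on 80 probe sets, and each gene was represented by its probe set of highest mean signal. They fall into 51 genes that carry the plain subunit name (27 for complex I, 3 for complex II, 4 for complex III, 7 for complex IV and 10 for the ATP synthase) and 21 paralogues whose symbol ends in L, for like, or in L and a digit. ND-MNLL is counted among the subunits because these letters are the subunit's own name. A further 18 genes that fit the rule, among them SdhA, UQCR-C1, UQCR-C2, COX6B and the mitochondrially encoded COX1, COX2 and COX3, were not analysed here because no probe set was assigned to them alone.

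The cells were sorted for green fluorescence from embryos at stage 11 or early stage 12, and the driver twi-GAL4 with the reporter UAS-2EGFP, which all 3 groups carry, labels cells that express Twist. The first group was homozygous for Df(1)CHES-1-like1, a deletion described in the labels as a null of the Forkhead gene CHES-1-like. The second was homozygous for the deficiency Df(3R)Exel6157, described as a null for the Forkhead gene jumu, with driver and reporter on different homologues. A deficiency can remove further genes, so effects of that group cannot be assigned to jumu alone. Controls carried driver and reporter and neither deletion. Each group has 3 arrays, and the labels do not say whether they came from separate collections, so the p-values rest on a spread among arrays that could be technical only. The comparisons ask how each mutant differed from controls and how the mutants differed from each other.

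Complex I (NADH dehydrogenase) and complex II (succinate dehydrogenase) pass electrons from NADH and succinate to ubiquinone, complex III passes them to cytochrome c, and complex IV (cytochrome c oxidase) to oxygen. Complexes I, III and IV pump protons across the inner mitochondrial membrane, and the ATP synthase uses the resulting gradient to make ATP. Most subunits, among them all of complex II, are encoded in the nucleus and imported. In the other complexes a few are encoded in the mitochondrial genome, and there both sets are needed for assembly. In Drosophila many nuclear subunit genes have a duplicated copy known chiefly from expression in the testis.

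Values are log2 signals, with array medians between 5.41 and 5.50 over all probe sets. The CHES-1-like signal was 4.04 ± 0.25 (SD, n = 3) in the CHES-1-like null, against 12.00 ± 0.03 in controls, and jumu was 8.13 ± 0.12 in the jumu deficiency, against 10.52 ± 0.06 in controls. Arrays of a group correlated across probe sets at Pearson's r of 0.998 to 0.999, against 0.985 to 0.993 between arrays of different groups. All 11 measured mesoderm markers, twi among them at 9.68 in controls, had a control signal above the 5.30 that bounds 95% of 112 chemoreceptor genes, used as an empirical background. CHES-1-like in its null lay below this bound, but jumu in the deficiency stayed above it. The source of that remaining jumu signal was not tested. Neither jumu nor CHES-1-like had a respiratory chain gene among its 20 nearest measured neighbours.

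Subunit genes were among the bright genes of these cells. Of the 51, 48 were among the 2996 genes with a mean of 9.41 or more, called bright genes here, with mean signals over the 9 arrays from 9.78 for ND-75 and ND-13B to 13.75 for ND-MLRQ. The others were UQCR-11 at 7.54, ND-B12 at 6.56 and ND-B8 at 3.69, the last within the background. Signals of different probe sets are not comparable as amounts of RNA, so this order says only where each probe set lay on the scale. Of the 21 like paralogues, 16 had a mean at or below the background bound, and the brightest, ATPsynepsilonL, had 6.44.

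In the CHES-1-like null, subunit genes of all 5 complexes were slightly lower than in controls. Of 51, 37 fell, against 18.6% of all 11982 genes that fell at the same threshold (limma adjusted p under 0.05) and 30.1% of the bright genes. None rose at this threshold, against 17.1% of all genes and 26.1% of the bright genes. At an unadjusted limma p under 0.05 none rose either, against 2722 of 11982 genes and 937 of 2996 bright genes. The median change was −0.18 on the log2 scale, a fall by 11.5%, against 0.02 over all genes, and 50 of 51 values lay below 0. No subunit fell by 1.5-fold. In 46 of 51 subunits all 3 null arrays lay below all 3 control arrays, which held for 24.9% of all genes and 40.9% of the bright genes.

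The shift was present on every CHES-1-like null array. The median difference of the 51 subunits from the control mean was −0.17, −0.19 and −0.20 on the null arrays, 0.04, 0.01 and 0.06 on the jumu deficiency arrays and within 0.01 of 0 on each control array. Summed as linear signal, the subunits ranged from 184111 to 185019 in the CHES-1-like null and from 211243 to 217523 in the jumu deficiency, against 209418 to 210882 in controls. In bulk samples of sorted cells, fewer cells of a type and less RNA per cell cannot be told apart.

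**Figure D1:**
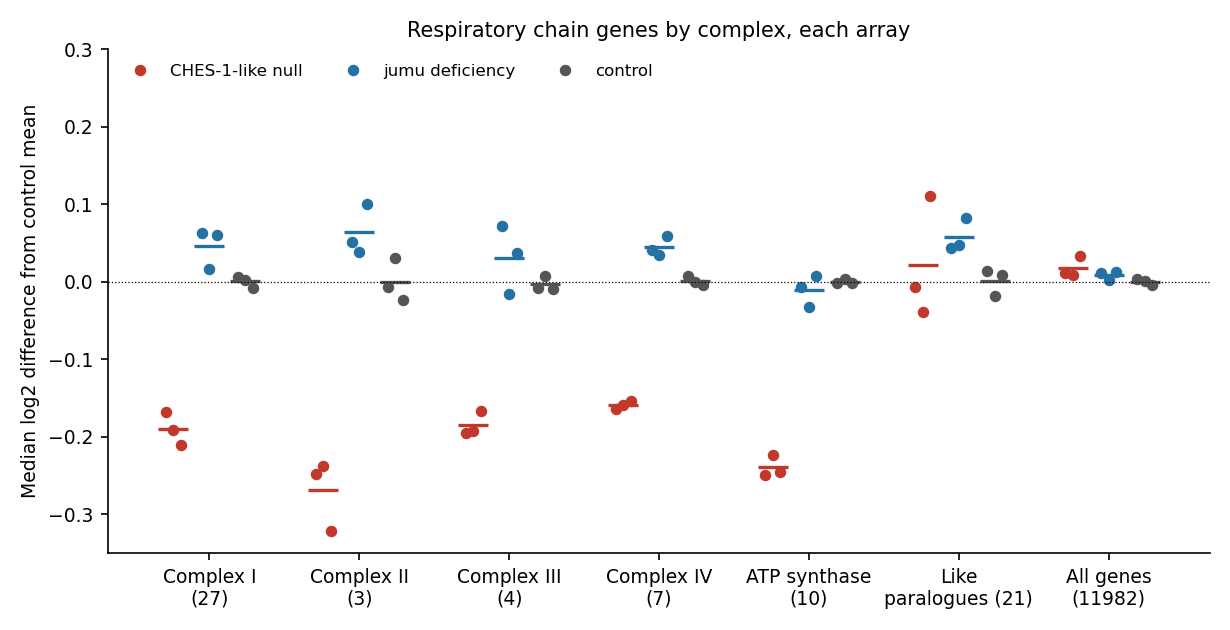
Median log2 difference from the control mean (vertical axis) over the genes of each complex, the like paralogues and all genes, with 1 point per array, a bar for the group mean and gene numbers in brackets. For each of the 5 complexes the 3 CHES-1-like null arrays lie below all control arrays, and the jumu deficiency arrays lie between −0.032 and 0.101.

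In complex I, 19 of 27 subunits fell in the CHES-1-like null, with a median change of −0.18. The accessory subunit ND-SGDH, the counterpart of human NDUFB5, read 12.16, 12.18 and 12.17 in the null, against 12.46, 12.49 and 12.49 in controls, a change of −0.31 ± 0.04 (SE, limma adjusted p = 0.000164). ND-B16.6, the counterpart of human NDUFA13, read 11.14, 11.13 and 11.10 in the null, against 11.46, 11.45 and 11.44 in controls, and changed by −0.33 ± 0.04 (adjusted p = 0.000128). ND-B14, the counterpart of NDUFA6, read 10.29, 10.27 and 10.24 in the null, against 10.61, 10.58 and 10.61 in controls, and changed by −0.33 ± 0.04 (adjusted p = 0.000196). For these accessory subunits the gap between the groups was several times wider than the range within either group. ND-ACP, the mitochondrial acyl carrier protein that is also a complex I subunit, changed by −0.34 ± 0.05, to 11.01 ± 0.01 (SD, n = 3) in the null, against 11.35 ± 0.03 in controls. Its other two probe sets fell by 0.42 and 0.48.

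Of the subunits that carry the redox centres of complex I, 1 of 3 measured passed. The flavin-binding subunit ND-51 read 10.76, 10.75 and 10.73 in the null, against 10.92, 10.92 and 10.86 in controls, and changed by −0.15 ± 0.04 (adjusted p = 0.014). That call was lost without control replicate 1 (−0.14, adjusted p = 0.0536) and without control replicate 2 (−0.14, adjusted p = 0.0566). The iron-sulphur subunits ND-75 and ND-20 differed by −0.06 ± 0.04 (adjusted p = 0.295) and −0.03 ± 0.05 (adjusted p = 0.635) and did not pass. ND-18, ND-19, ND-39, ND-B14.5A, ND-ASHI and ND-PDSW fell, by values from −0.30 for ND-B14.5A to −0.24 for ND-PDSW. ND-B17.2, ND-B14.7, ND-B18, ND-B17, ND-B22, ND-B14.5B, ND-15 and ND-MNLL fell less, with values from −0.23 for ND-B17.2 to −0.12 for ND-MNLL. ND-13A, ND-42, ND-B12, ND-B8, ND-13B and ND-MLRQ did not pass the threshold. ND-13B, at 0.04 ± 0.05, was the sole subunit with a value above 0, and ND-MLRQ, whose mammalian counterpart is now assigned to complex IV, was the brightest member at 13.70 ± 0.03 (SD, n = 3) in the null, against 13.72 ± 0.02 in controls.

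All 3 measured complex II subunits fell in the CHES-1-like null. SdhC, one of the membrane anchors, read 10.90, 10.84 and 10.90 in the null, against 11.19, 11.25 and 11.23 in controls, and changed by −0.34 ± 0.04 (SE, limma adjusted p = 0.000144). SdhB, the iron-sulphur subunit, changed by −0.27 ± 0.05, with 10.25, 10.26 and 10.16 in the null, against 10.52, 10.55 and 10.43 in controls. All null arrays lay below all control arrays for each of the 3, as for 24.9% of all genes and 40.9% of the bright genes. For the second membrane anchor, SdhD, the change was −0.16 ± 0.04, and its call was lost without null replicate 3 (−0.13, adjusted p = 0.0533) and without control replicate 2 (−0.14, adjusted p = 0.0725).

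Complex III was represented by small accessory subunits, of which 3 of 4 fell. UQCR-6.4 read 12.67, 12.64 and 12.69 in the CHES-1-like null, against 12.88, 12.93 and 12.89 in controls (−0.23 ± 0.04 SE, limma adjusted p = 0.00162). UQCR-Q changed by −0.22 ± 0.05, to 10.24 ± 0.02 (SD, n = 3) in the null, against 10.45 ± 0.02 in controls. UQCR-14 changed by −0.15 ± 0.04 and UQCR-11, at −0.07 ± 0.11, did not pass.

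In complex IV, 5 of 7 subunits fell, with a median of −0.16. COX7A read 12.88, 12.87 and 12.78 in the CHES-1-like null, against 13.15, 13.23 and 13.20 in controls, and its change of −0.35 ± 0.05 (SE, limma adjusted p = 0.000509) was the lowest value of any subunit in this comparison. COX4, COX5A, COX5B and COX7C had nearly equal changes of −0.17, −0.16, −0.15 and −0.17, each with an SE of 0.04. COX4 stood at 12.76 ± 0.01 (SD, n = 3) in the null, against 12.93 ± 0.05 in controls. COX7B and COX8 had values of −0.10 each and did not pass, although a second probe set of COX7B fell by 0.14 (adjusted p = 0.0262). On all 7 the null arrays lay below the control arrays, which held for 24.9% of all genes and 40.9% of the bright genes.

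The ATP synthase had 7 of 10 subunits that fell in the CHES-1-like null, with the median at −0.24. ATPsyngamma, the rotating central stalk, read 11.46, 11.52 and 11.36 in the null, against 11.82, 11.76 and 11.80 in controls, and changed by −0.35 ± 0.05 (SE, limma adjusted p = 0.000957). Its second probe set fell by 0.39. ATPsynC, which forms the membrane ring, read 12.68, 12.73 and 12.69 in the null, against 12.98, 12.99 and 12.99 in controls (−0.29 ± 0.04, adjusted p = 0.000366). Of the peripheral stalk, ATPsynB, ATPsynD and ATPsynCF6 changed by −0.26 ± 0.04, −0.31 ± 0.04 and −0.18 ± 0.04, and ATPsynF and ATPsynE of the membrane part by −0.31 ± 0.04 and −0.22 ± 0.04. For ATPsynO, the catalytic subunit ATPsynbeta and ATPsyndelta the values were −0.11 each with adjusted p of 0.0571, 0.0621 and 0.0503, none past the threshold. The null arrays lay below the control arrays for all 10 subunits, against 24.9% of all genes and 40.9% of the bright genes.

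**Figure D2:**
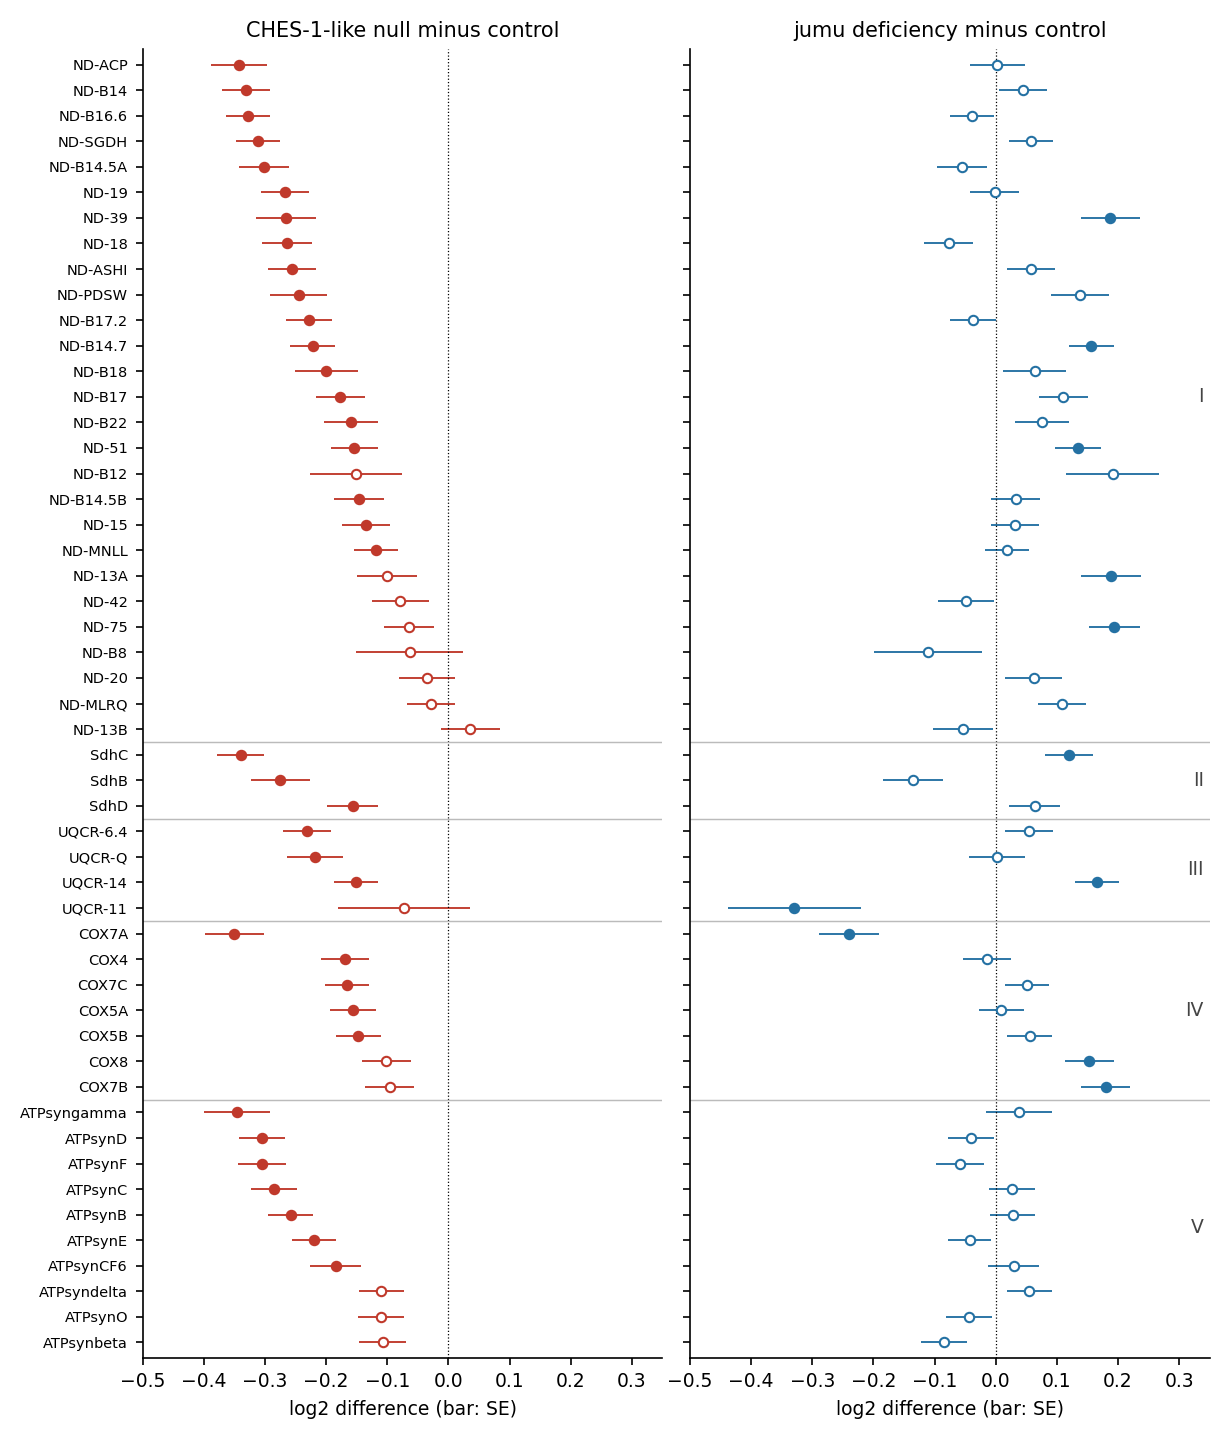
Log2 difference from controls with its SE (horizontal axis) for each of the 51 subunit genes, grouped by complex I to V, in the CHES-1-like null (left) and the jumu deficiency (right), with filled points past the limma threshold. On the left 37 genes are filled and all of these lie below 0, and on the right 9 filled genes lie above 0 and 2 below.

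The decrease in the CHES-1-like null covered genes on several chromosome arms. Of the subunits on arms 2L, 2R, 3L, 3R and X, 9 of 11, 7 of 8, 5 of 10, 9 of 11 and 7 of 10 fell, with medians between −0.25 and −0.15. Over all arms together 18.6% of all genes and 30.1% of the bright genes fell. The share of all genes on each arm was not computed. The 1 subunit on chromosome 4, ATPsynbeta, is described above.

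Related genes outside the symbol rule were lower too. Of 12 measured, 10 fell, with a median of −0.21. The 12 include sesB, Ant2 and porin, which do not encode subunits of the complexes. The catalytic ATP synthase partner blw (the alpha subunit) changed by −0.42 ± 0.05 (SE), the Rieske protein RFeSP of complex III by −0.26 ± 0.05, Cyt-c1 of the same complex by −0.21 ± 0.04 and levy and cype of complex IV by −0.21 ± 0.04 and −0.16 ± 0.04. Among 20 genes of assembly, cofactor synthesis and mitochondrial shape 13 fell, with Surf1 and Scox, which serve assembly of complex IV, at −0.53 ± 0.06 and −0.46 ± 0.04. For expression of the mitochondrial genome 10 of 13 genes fell, among them the transcription factor gene TFAM at −0.34 ± 0.04. Of 13 citric acid cycle genes 7 fell and 4 rose. All 9 glycolysis genes fell, with a median of −0.76. The symbols mRpL and mRpS, which mark mitochondrial ribosomal proteins, gave 65 lower genes of 69 (median −0.34), and RpL and RpS, which mark cytosolic ones, gave 5 lower of 41 (median −0.03). All these counts stand beside 18.6% of all genes that fell.

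Markers of other cell types and RNA quality moved in the same arrays. Among mesoderm markers 5 of 11 were lower and 1 higher in the CHES-1-like null, with summed signals of 23907.5 to 24374.3, against 26924.8 to 27578.0 in controls, and twi at −0.15 ± 0.05 did not pass (limma adjusted p = 0.057). Of 14 epidermis markers 12 rose and 1 fell, and their summed signal was 14897.3 to 15431.7 in the null, against 9929.1 to 10188.6 in controls. Of 15 neural markers 9 rose and 1 fell (17114.2 to 17939.6 in the null, against 16069.0 to 16351.5 in controls). Endoderm markers rose in 5 of 6 cases (3627.2 to 3712.9, against 2554.6 to 2640.2). Germ cell markers rose in 4 of 9 cases and fell in 2 (5060.9 to 5403.2, against 4370.3 to 4484.6). Of the 4, ovo was the brightest and rose by 0.89 ± 0.07 (SE). The markers vas and osk lay within the background, at 4.61 and 4.86 in controls, and did not pass. Among 12 haemocyte markers 5 rose and 3 fell, with sums of 26557.3 to 27061.3 in the null, against 29100.7 to 29328.9 in controls. The 5 increases were 0.16 to 0.54. Of the 3 decreases, PPO1 and PPO2 had −0.84 ± 0.05 (SE) and −0.86 ± 0.04, and Glt −0.18 ± 0.06. The sum was thus lower although more markers rose than fell. These marker counts stand beside 17.1% of all genes that rose and 18.6% that fell. The excess of 3′ over 5′ signal of the actin control transcript was 0.94 ± 0.06 (SD, n = 3) in the null, against 1.04 ± 0.01 in controls, and that of GAPDH 0.08 ± 0.25, against 0.34 ± 0.09. For eIF-4A it was 1.15 ± 0.05 in the null, against 1.07 ± 0.07 in controls, and for 18S RNA 0.81 ± 0.11, against 0.95 ± 0.05. The arrays of the groups overlapped for eIF-4A and 18S and not for actin and GAPDH. The part of these differences in the lower subunit signals was not tested.

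In the jumu deficiency most subunit genes did not pass the threshold. Of 51, 9 rose and 2 fell, against 17.6% of all genes that rose and 21% that fell, and 21.9% and 30.7% of the bright genes. The share of subunits that rose was thus near that of all genes. The median change was 0.03, against 0.01 over all genes. All deficiency arrays lay above all control arrays for 18 subunits and below them for 8, against 26.6% and 27.6% of all genes and 33% and 41.5% of the bright genes. Without control replicate 1 or 3 the increases numbered 5, and without replicate 3 of the deficiency 6. After centring each array on its median no subunit rose past the threshold and 5 fell, at a subunit median of −0.03. The 9 kept values above 0, from 0.06 for SdhC to 0.14 for ND-75. Centring thus removed their calls and turned the sign of the subunit median. After quantile normalization all 9 stayed past the threshold and the subunit median stayed above 0. The 3′ excess of the actin control was 1.26 ± 0.03 (SD, n = 3) in the deficiency, against 1.04 ± 0.01 in controls, and that of eIF-4A 1.35 ± 0.03, against 1.07 ± 0.07, both without overlap. For 18S RNA it was lower without overlap, at 0.76 ± 0.05 in the deficiency, against 0.95 ± 0.05 in controls, and for GAPDH the arrays overlapped (0.42 ± 0.16, against 0.34 ± 0.09). The part of these differences in the subunit values was not tested.

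The 9 genes that rose as deposited were spread over complexes I to IV. ND-75, the large iron-sulphur subunit of complex I, read 9.95, 9.88 and 9.96 in the jumu deficiency, against 9.74, 9.76 and 9.72 in controls (0.19 ± 0.04 SE, limma adjusted p = 0.00547). ND-B14.7, a membrane arm subunit, read 10.89, 10.84 and 10.85 in the deficiency, against 10.69, 10.72 and 10.71 in controls (0.16 ± 0.04, adjusted p = 0.00971). UQCR-14 of complex III read 13.08, 13.05 and 13.07 in the deficiency, against 12.91, 12.90 and 12.89 in controls (0.17 ± 0.04, adjusted p = 0.00599). For each of these genes deficiency and control arrays stood apart, and each call was lost after centring, with adjusted p of 0.0741 for ND-75, 0.141 for ND-B14.7 and 0.101 for UQCR-14. COX7B rose by 0.18 ± 0.04, though its second probe set of similar brightness did not pass (0.10, adjusted p = 0.0798).

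The remaining increases were ND-39 at 0.19 ± 0.05, ND-13A at 0.19 ± 0.05, ND-51 at 0.13 ± 0.04, SdhC at 0.12 ± 0.04 and COX8 at 0.15 ± 0.04. Each of these calls also depended on single arrays. ND-39 was lost without control replicate 3 (0.16, limma adjusted p = 0.0643). ND-13A was lost without control replicate 1 or 3 or replicate 3 of the deficiency, with values of 0.17 to 0.19. SdhC was lost without any 1 control or deficiency array, with values of 0.10 to 0.13, and without null replicate 1, which enters only through the shared spread. ND-51 was lost without control replicate 1 or 3 and without replicate 2 or 3 of the deficiency, with values of 0.11 to 0.14, and COX8 without control replicate 1 or 2 or replicate 1 of the deficiency, with values of 0.13 to 0.15.

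Of the 2 subunits lower in the jumu deficiency, COX7A had signals of 13.02, 12.90 and 12.95 there, against 13.15, 13.23 and 13.20 in controls (−0.24 ± 0.05 SE, limma adjusted p = 0.00447). COX7A was thus the sole subunit past the threshold in the same direction in both mutants, which share the controls. UQCR-11 of complex III read 7.29, 7.62 and 7.12 in the deficiency, against 7.76, 7.61 and 7.64 in controls, and the groups overlapped through replicate 2 of the deficiency. Its call (−0.33 ± 0.11, adjusted p = 0.0445) was lost without any 1 array other than that replicate, with values of −0.36 to −0.22. No ATP synthase subunit passed the threshold in the limma fit, and none reached an unadjusted p under 0.05 in either direction. The lowest value, −0.09 ± 0.04 for ATPsynbeta, had adjusted p = 0.124. The second probe set of ATPsynbeta rose by 0.26 (adjusted p = 0.00924), so its probe sets disagreed.

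The related genes outside the symbol rule went both ways in the jumu deficiency, with 4 of 12 higher and 2 lower. The ADP/ATP carrier gene sesB rose by 0.50 ± 0.11 (SE) and Ant2, a second carrier gene, changed by −0.33 ± 0.05. RFeSP rose by 0.27 ± 0.05. Of the assembly and cofactor genes 3 of 20 rose and 3 fell, of mitochondrial genome expression genes 1 of 13 rose and 6 fell, with mtDNA-helicase, the replicative helicase, at −1.06 ± 0.04, of citric acid cycle genes 3 of 13 rose and 4 fell, and 6 of 9 glycolysis genes fell. Mesoderm markers rose in 8 of 11 cases and fell in 1, with summed signals of 27536.5 to 28426.1 in the deficiency, against 26924.8 to 27578.0 in controls. Haemocyte markers rose in 7 of 12 cases, with sums of 40288.5 to 42029.7 in the deficiency, against 29100.7 to 29328.9 in controls, and epidermis markers fell in 6 of 14 cases and rose in 1 (8514.8 to 8678.3, against 9929.1 to 10188.6). Neural markers fell in 9 of 15 cases and rose in 3, endoderm markers fell in 2 of 6 and rose in 1, and germ cell markers fell in 5 of 9. Their part in the changes of chain genes was not tested. Of the mitochondrial ribosomal proteins 13 of 69 rose and 8 fell. The counts of this paragraph stand beside 17.6% of all genes that rose and 21% that fell, and several lie near these shares.

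The direct comparison of the mutants, which does not use the control means, gave more subunits past the threshold than either comparison with controls. In the jumu deficiency 42 of 51 were higher than in the CHES-1-like null, against 21.2% of all genes and 31.2% of the bright genes. None was lower in the limma fit, and 1 was lower at an unadjusted p under 0.05, against 21.1% of all genes and 30.9% of the bright genes lower by the adjusted threshold. The median difference was 0.25, or 18.6%, against 0.00 over all genes, and 46 of 51 had all deficiency arrays above all CHES-1-like null arrays, against 26.3% of all genes and 38.8% of the bright genes. By complex the higher subunits numbered 23 of 27, 2 of 3, 3 of 4, 6 of 7 and 8 of 10, for complexes I to IV and the ATP synthase. After centring each array the median was 0.22.

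SdhC had the widest gap, with 11.34, 11.34 and 11.35 in the jumu deficiency, against 10.90, 10.84 and 10.90 on the CHES-1-like null arrays (0.46 ± 0.04 SE, limma adjusted p = 1.28e-05). ND-39, an accessory subunit of complex I, read 11.47, 11.45 and 11.59 in the deficiency, against 11.06, 11.03 and 11.07 in the null (0.45 ± 0.05, adjusted p = 6.55e-05). ND-B14.7, ND-SGDH and ND-B14 differed by 0.38 ± 0.04, 0.37 ± 0.04 and 0.38 ± 0.04. The ATP synthase subunits ATPsyngamma, ATPsynC, ATPsynB and ATPsynD differed by 0.38 ± 0.05, 0.31 ± 0.04, 0.29 ± 0.04 and 0.26 ± 0.04. In complex III, UQCR-14 differed by 0.32 ± 0.04, UQCR-6.4 by 0.29 ± 0.04 and UQCR-Q by 0.22 ± 0.05. In complex IV, COX7B, COX8, COX7C and COX5B differed by 0.28 ± 0.04, 0.25 ± 0.04, 0.22 ± 0.04 and 0.20 ± 0.04. COX7C was not past the threshold when its probe sets were averaged (0.12, adjusted p = 0.168), since the value of its dim second probe set was 0.01.

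Of the 9 subunits that did not differ past the threshold between the mutants, UQCR-11 had −0.26 ± 0.11 (SE) and ND-13B −0.09 ± 0.05, the lowest values. Without replicate 2 of the jumu deficiency UQCR-11 was lower there, at −0.40 (limma adjusted p = 0.00203). ND-20, ND-42, ND-B8, SdhB, COX7A, ATPsynO and ATPsynbeta made up the rest, with values from −0.05 to 0.14. The second probe set of ATPsynbeta was higher in the deficiency, at 0.30 (limma adjusted p = 0.00354), so its probe sets disagreed here too. Mesoderm and haemocyte markers were higher in 8 of 11 and 7 of 12 cases in the jumu deficiency, with none lower. Epidermis, endoderm, neural and germ cell markers were lower in 12 of 14, 6 of 6, 10 of 15 and 5 of 9, with 1 neural marker higher. Assembly and cofactor genes were higher in 14 of 20 cases and lower in 2. Mitochondrial ribosomal proteins were higher in 61 of 69 cases and glycolysis genes in 7 of 9, with none lower. These counts stand beside 21.2% of all genes higher and 21.1% lower. Their part in the subunit differences was not tested.

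**Figure D3:**
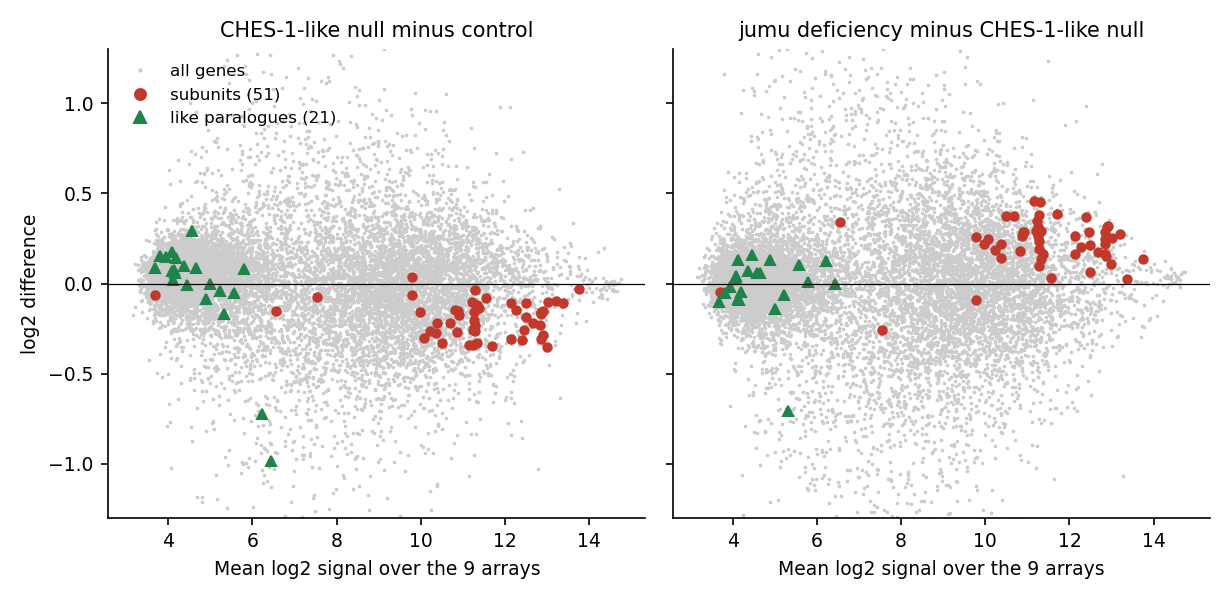
Log2 difference (vertical axis) against mean log2 signal over the 9 arrays (horizontal axis) for all genes in grey, the 51 subunits as red circles and the 21 like paralogues as green triangles, for the CHES-1-like null minus control and the jumu deficiency minus the CHES-1-like null. Of the 51 subunits 48 lie at 9.78 or more, 50 lie below 0 on the left panel and 48 above 0 on the right, and 95 and 242 genes with changes beyond 1.3 lie outside the axes.

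In the CHES-1-like null, 1 of the 21 like paralogues rose and 2 fell, with a median of 0.07, against 17.1% of all genes that rose and 18.6% that fell. In the jumu deficiency 2 rose and 3 fell, with a median of 0.09, against 17.6% and 21% of all genes. ATPsynepsilonL, a copy of the ATP synthase epsilon gene, read 6.29, 6.21 and 5.85 for CHES-1-like null arrays and 6.20, 6.15 and 5.98 for jumu deficiency arrays, against 7.23, 7.01 and 7.06 in controls. Its changes were −0.99 ± 0.11 (SE, limma adjusted p = 0.000162) in the null and −0.99 ± 0.11 (adjusted p = 0.00014) in the deficiency. The epsilon subunit gene sun changed by −0.30 ± 0.07 (adjusted p = 0.0095) in the null and had 0.05 ± 0.07 (adjusted p = 0.656) in the deficiency. COX4L read 6.02, 6.13 and 5.68 in the null and 6.07, 5.88 and 6.24 in the deficiency, against 6.75, 6.65 and 6.60 in controls. Its changes were −0.72 ± 0.12 (adjusted p = 0.00147) and −0.60 ± 0.12 (adjusted p = 0.00406) in the same order. For both genes the arrays of each mutant lay below those of controls, and the mutant groups overlapped each other. The 2 changes of each gene share the same 3 control arrays.

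ND-51L1, one of 2 measured copies of ND-51, was lower in the jumu deficiency, with 4.72, 4.90 and 4.74 there, against 5.55, 5.77 and 5.67 in controls (−0.88 ± 0.09 SE, limma adjusted p = 6.73e-05). The deficiency mean of 4.79 lies within the background, so this value may understate the change. In the CHES-1-like null it read 5.46, 5.36 and 5.67, at −0.17 ± 0.09 (adjusted p = 0.208), and the direct difference between the mutants was −0.71 ± 0.09 (adjusted p = 0.000199). The other copy, ND-51L2, had 0.05 ± 0.07 (adjusted p = 0.662) in the deficiency. SdhCL and UQCR-14L rose in the jumu deficiency by 0.21 ± 0.05 and 0.15 ± 0.04, and SdhCL in the null by 0.17 ± 0.05, all at signals within the background. SdhCL in the null was lost without any 1 control array and without null replicate 1 or 3, with values of 0.14 to 0.18. UQCR-14L in the deficiency was lost without control replicate 1 or 2 and without replicate 1 of the deficiency, with values of 0.13 to 0.16. ATPsynGL had 0.29 ± 0.13 and 0.35 ± 0.13 in the null and the deficiency, and passed in the deficiency without null replicate 3 (0.35, adjusted p = 0.046). COX5BL had 0.15 ± 0.09 in the null and did not pass.

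**Figure D4:**
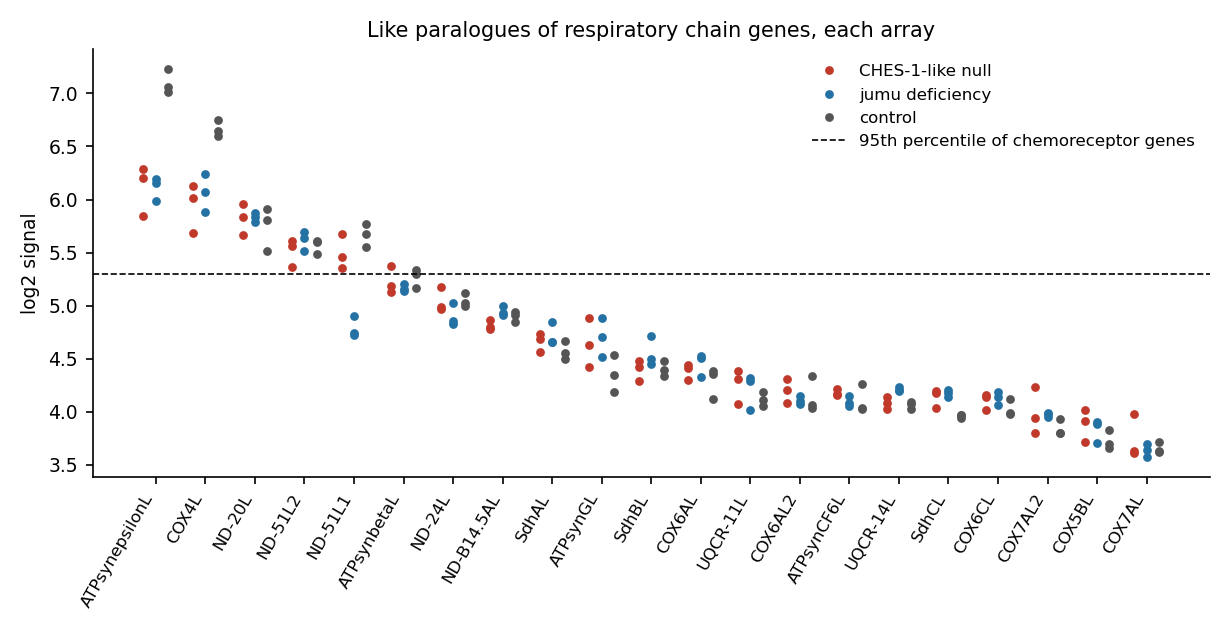
Log2 signal (vertical axis) of the 21 like paralogues on each array, in order of mean signal, with the dashed line at the 5.30 that bounds 95% of chemoreceptor genes. ATPsynepsilonL and COX4L are lower in both mutants than in controls, ND-51L1 is lower in the jumu deficiency, and 16 of the genes have means at or under the line.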

How the data were processed

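Total RNA of sorted cells was hybridised to Affymetrix expression arrays, 9 in 3 groups of 3. The authors deposited log2 signals for 18952 probe sets, between 2.99 and 14.89. Per the submitters' processing notes affy was used. Its version and the background correction, summary and normalization steps are not stated in the labels. The number of arrays limits precision, and dim or saturated probe sets can understate changes.

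Leaving out 183 array controls gave 18769 tested probe sets. The platform annotation lists 1 gene for 13647, several for 402 and none for 4720. By gene identifier, 13544 received a current symbol from the Release 6 plus ISO1 MT table. A limma 3.58.1 model of the 3 group means (lmFit, eBayes, R 4.3.3) was fitted over all arrays, with Benjamini-Hochberg adjustment over all tested probe sets and a threshold of 0.05, and was tested on simulated data. Differences carry the SE of the fit and means the SD. Counts of genes use 1 probe set per gene.

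Per comparison the rule names up to 4 called members of smallest p per class, the 3 highest and 3 lowest changes, members changed in opposite directions, and the brightest and dimmest. Others were named after their values were seen. Members and lists were chosen with earlier results of these data known. Alternatives covered normalization, centring, a filter on dim probe sets, array weights, the variance model, the groups fitted, probe set averaging, thresholds, single arrays and the replicate number. Same-numbered replicates of different groups deviated from their group means with correlations of −0.14 to 0.15, over 0.1 in 2 of 9 pairs, so the numbers were not taken to pair samples.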

Additional observations from a re-analysis of the deposited data

Results flagged for a closer look

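The 5 genes below were past the threshold in opposite directions in the 2 mutants and differed in the direct comparison, jumu deficiency minus CHES-1-like null (limma). ND-39 differed by 0.45 between the mutants, ND-51 by 0.29, ND-B14.7 by 0.38, SdhC by 0.46 and UQCR-14 by 0.32. For each, the deficiency arrays lay above the control arrays and the CHES-1-like null arrays below them. The 2 changes against controls share those controls. Their increases in the deficiency were not past the threshold after centring each array on its median.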

How the results depend on the processing

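CHES-1-like null minus control: of the 37 lower subunits (39 of all 72 genes), 0 (2 of all 72) fell by at least 1.5-fold. The subunit median was −0.21 after centring on array medians, −0.18 with averaged probe sets and −0.17 after quantile normalization. The median of all 72 was −0.15, and −0.14 with array weights or quantile normalization, −0.19 after centring and −0.17 without the lower 40% of probe sets. The 1 higher gene (SdhCL) became 0 under centring, the fit of 2 groups, quantile normalization, a variance trend with robust estimation, the filter on dim probe sets, an adjusted p of 0.01 and a 1.5-fold minimum. Jumu deficiency minus control: the 9 higher subunits (11 of all 72) became 0 (0) after centring, 4 (4) at 0.01 and 0 (0) at 1.5-fold. The 2 lower subunits became 5 after centring, 4 with averaged probe sets, a variance trend or the filter, 1 with the fit of 2 groups, quantile normalization, the replicate block or 0.01, and 0 at 1.5-fold. Of all 72 the 5 lower became 9 after centring and 3 at 1.5-fold. The direction turned with the scaling: the subunit median, 0.033 as deposited, was −0.025 after centring and 0.049 after quantile normalization, and that of all 72, 0.046 as deposited, was −0.013 after centring and 0.031 with the filter. Jumu deficiency minus CHES-1-like null: the 42 higher subunits (43 of all 72) became 0 (0) at 1.5-fold. Lower subunits numbered 1, and lower genes 2, with array weights or a variance trend. The medians were 0.22 (subunits) and 0.15 (all 72) after centring and 0.22 (all 72) with the filter. The cause of these shifts was not tested; the stricter thresholds call fewer genes by construction.

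Leaving out 1 array at a time gave 31 to 37 lower and 0 higher subunits in the CHES-1-like null, with medians of −0.19 to −0.18, and 33 to 39 lower and 0 to 1 higher of all 72, with medians of −0.16 to −0.14. For the jumu deficiency against controls it gave 5 to 11 higher and 1 to 2 lower subunits, medians 0.031 to 0.046, and 6 to 14 higher and 4 to 5 lower of all 72, medians 0.038 to 0.048. Between the mutants it gave 40 to 42 higher and 0 to 1 lower subunits, medians 0.23 to 0.25, and 40 to 44 higher and 1 to 2 lower of all 72, medians 0.17 to 0.19. With the replicate block 35 subunits were lower in the null, 7 higher and 1 lower in the deficiency, and 42 higher between the mutants. Over 65 comparisons of single genes, 46 of the results with 1 array left out and 28 of the others were no longer past the threshold, and 2 and 4 came past it.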
